A study of Mus musculus with 6 samples.

Results

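Genes of sterol and fatty acid synthesis were examined in WT and mTOR-/- M-MDSCs. The set was a fixed list of 41 genes matched by symbol, and all 41 were found among the 34745 genes of the count table. It holds the SREBP transcription factors and their regulators, the enzymes that make cholesterol and fatty acids, and genes of sterol transport and efflux. All 41 were among the 12537 genes that passed the filter on low counts.

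M-MDSCs are the monocytic subset of myeloid-derived suppressor cells, which restrain T cell responses. The study asked what mTOR deficiency changes in these cells. RNA of 3 mTOR-/- and 3 WT libraries was sequenced, all of strain C57BL/6 and of bone marrow origin. The mTOR-/- cells came from Lyz-mTOR mice, which carry mTOR flox/flox together with Lyz-Cre, so that Cre is driven by a lysozyme locus and acts in myeloid cells. WT mice are described with neither the floxed allele nor Cre, so the deletion and the presence of Cre cannot be told apart. Per the study's methods, bone marrow cells of both groups were cultured with GM-CSF and IL-6, and M-MDSCs were obtained by cell sorting. The labels and methods give as many mice as there are libraries in a group, but not whether each library came from 1 mouse, and age and sex are not given in the sources used here, so p-values measure only the spread between these libraries.

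Cells regulate their sterols through 2 opposing systems. SREBP-1 and SREBP-2, the products of Srebf1 and Srebf2, are held in the endoplasmic reticulum by INSIG proteins and are escorted by SCAP to the Golgi when sterols are low, where they are cut and released to activate genes of cholesterol and fatty acid synthesis. LXR receptors respond to oxidized sterols and activate efflux genes such as Abca1 and Abcg1, and Mylip, whose product degrades the LDL receptor. mTOR complex 1 is known to promote SREBP activity, in part through the lipin encoded by Lpin1. These regulators act largely on protein processing and location, which RNA counts do not measure.

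SREBP proteins bind sterol regulatory elements and E-boxes, often beside a CCAAT box bound by NF-Y. Upstream sequences were taken from RefSeq on GRCm38.p6, the same assembly as mm10, for the 33 members with an entry. No entry was matched for Fdps, Fdft1, Sqle, Stard4, Abcg1, Scd1, Scd2 and Fads1. The 4 sequences shown are those of Hmgcs1, an early enzyme of cholesterol synthesis, Insig1, the feedback regulator, and Fasn and Elovl5 of the fatty acid branch. They run 5′ to 3′ and reach up to 250 bases before the start of the gene in RefSeq, without bases annotated as exon. Capitals mark CACNCCAC (sterol regulatory element-like letters), CCAAT and the E-box CACGTG on either strand.
Hmgcs1 (chr13:119690101-119690350, forward strand): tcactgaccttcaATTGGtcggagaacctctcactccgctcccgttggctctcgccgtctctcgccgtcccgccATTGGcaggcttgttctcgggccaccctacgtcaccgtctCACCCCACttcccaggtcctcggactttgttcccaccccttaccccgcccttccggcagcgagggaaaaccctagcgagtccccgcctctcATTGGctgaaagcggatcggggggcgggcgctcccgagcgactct
Insig1 (chr5:28071162-28071362, forward strand): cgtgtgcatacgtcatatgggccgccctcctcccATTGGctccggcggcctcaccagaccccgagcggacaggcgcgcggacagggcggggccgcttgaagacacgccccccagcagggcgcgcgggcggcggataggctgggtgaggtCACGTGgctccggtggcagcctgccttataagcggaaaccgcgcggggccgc
Fasn (chr11:120824548-120824797, reverse strand): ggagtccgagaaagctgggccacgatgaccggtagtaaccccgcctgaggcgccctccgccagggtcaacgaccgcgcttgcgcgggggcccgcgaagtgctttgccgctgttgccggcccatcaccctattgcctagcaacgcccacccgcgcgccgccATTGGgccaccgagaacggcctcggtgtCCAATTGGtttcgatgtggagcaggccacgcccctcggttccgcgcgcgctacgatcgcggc
Elovl5 (chr9:77917115-77917363, forward strand): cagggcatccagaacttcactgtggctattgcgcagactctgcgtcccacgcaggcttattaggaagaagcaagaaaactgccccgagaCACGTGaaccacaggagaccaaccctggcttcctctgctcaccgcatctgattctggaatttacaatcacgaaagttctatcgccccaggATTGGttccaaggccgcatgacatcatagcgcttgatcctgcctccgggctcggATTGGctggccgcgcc
In the Hmgcs1 sequence the letters CACCCCAC stood 136 to 129 bases before the start, with 3 CCAAT boxes around them. Insig1 held 1 CCAAT box and 1 E-box, and another match to CACNCCAC lay in the part left out. Fasn held 3 CCAAT boxes, of which 2 overlap on opposite strands, and Elovl5 held 2 CCAAT boxes and 1 E-box. Over all member sequences, CCAAT was found in 25 of 44 entries (56.8%), against 33.8% of all 32851 entries of the same length. CACGTG was found in 7 of the 44 entries (15.9%), against 6.02% of all entries. CACNCCAC was found in 4 of the 44 entries (9.09%), against 5.29% of all. These matches describe the letters only.

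Total counts per library were 12317507 to 12903191 in mTOR-/- cells and 14066578 to 14768126 in WT cells. Mtor, the targeted gene, was at 72.0, 75.9 and 69.5 CPM in mTOR-/- replicates 1, 2 and 3 and at 69.7, 59.8 and 66.2 CPM in the WT replicates (log2 fold change 0.15, standard error 0.11, 95% interval -0.09 to 0.39, adjusted p = 0.442, edgeR's quasi-likelihood test). CPM are counts scaled by the size of each library and its TMM factor. Whole-gene counts of Mtor therefore cannot check which libraries are mTOR-/-, and that name follows the labels. The methods describe PCR genotyping of the mice and a separate check of mTOR depletion in MDSCs, neither of which is part of these files. Lyz2, a lysozyme gene, was lower in mTOR-/- (log2 fold change -1.68, adjusted p = 0.00255, edgeR). The study names the Cre locus only as Lyz and lists its genotyping primers. Those primers were not mapped here, so which lysozyme gene carries Cre was not determined. The monocyte marker list held Itgam, Csf1r, Cd14, Ly6c2, Ccr2 and Fcgr1, all detected in every library, and summed to 1351 to 1795 CPM in mTOR-/- cells and 1439 to 1601 CPM in WT cells, with 2 of 6 genes called higher and 1 lower. Csf1r, the receptor of the monocyte growth factor M-CSF, was called higher, at 391 ± 5.46 against 277 ± 13.7 CPM (SD, n = 3; adjusted p = 0.0136, edgeR), and so was Cd14, at 216 ± 17.9 against 112 ± 5.86 CPM (adjusted p = 0.00128, edgeR). Ly6c2, the marker that defines the monocytic subset and a near-identical copy of Ly6c1, was called lower, at 87.3 ± 16.0 against 174 ± 55.5 CPM (SD, n = 3; adjusted p = 0.0426, edgeR). Among other cell types, the mast cell or basophil list summed to 239 to 295 CPM in mTOR-/- cells and 876 to 1056 CPM in WT cells, with 3 of 6 genes called lower, and the dendritic cell list to 196 to 269 CPM in mTOR-/- cells and 70.9 to 159.7 CPM in WT cells, with 1 of 6 tested genes called higher. The summed neutrophil list overlapped between the groups, at 888 to 1051 CPM in mTOR-/- cells and 857 to 1144 CPM in WT cells. Of its 10 genes, 2 were called higher and 2 lower. Ly6g, whose product the study defines as absent from M-MDSCs, was called higher in mTOR-/- cells (log2 fold change 2.26, adjusted p = 0.0365, edgeR). It was at 13.3 ± 2.31 CPM there and 2.77 ± 2.13 CPM in WT cells (SD, n = 3). S100a8 was also called higher (log2 fold change 0.62, adjusted p = 0.0305, edgeR). Ltf (log2 fold change -2.04, adjusted p = 0.00214, edgeR) and Ngp (-0.56, adjusted p = 0.0343, edgeR) were called lower. The macrophage list summed to 535 to 657 CPM in mTOR-/- cells and 662 to 744 CPM in WT cells, with 0 of 4 tested genes called. Of the cycling-cell genes 1 of 6 was called lower, and their sum was 480.2 to 508 CPM in mTOR-/- cells and 507 to 683 CPM in WT cells. Adipoq, Plin1, Lep, Cfd and Cxcl12 of adipocytes and stroma had 0 counts in every library. The erythroid list summed to 2.12 to 3.82 CPM in mTOR-/- cells and 6.68 to 11.4 CPM in WT cells, and the lymphocyte list to 1.47 to 4.28 CPM in mTOR-/- cells and 1.07 to 1.78 CPM in WT cells. The part of these shifts in the results below was not tested.

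Of the 41 members, 3 passed the test between the groups. Stard4 was higher in mTOR-/- M-MDSCs, and Abcg1 and Scd2 were lower. A gene is called here at an adjusted p under 0.05 (edgeR's quasi-likelihood F test, Benjamini-Hochberg adjustment over all 12537 tested genes), and a called gene that differs by a fold of 2 or more is a DEG. By that rule 4.04% of all tested genes were called, 2.18% higher and 1.87% lower, and 7.32% of the members. Stard4 was the 1 DEG among the members, where 1.69% of all tested genes were DEGs and 1.04% were higher DEGs. The median log2 fold change of the members was -0.08, against 0.0049 over all tested genes. It was below 0 for 25 members and above 0 for 16. The share below 0 was 61.0% of the members and 49.4% of all tested genes. In bulk RNA, fewer cells of a type and less RNA per cell cannot be told apart.

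**Figure D1:**
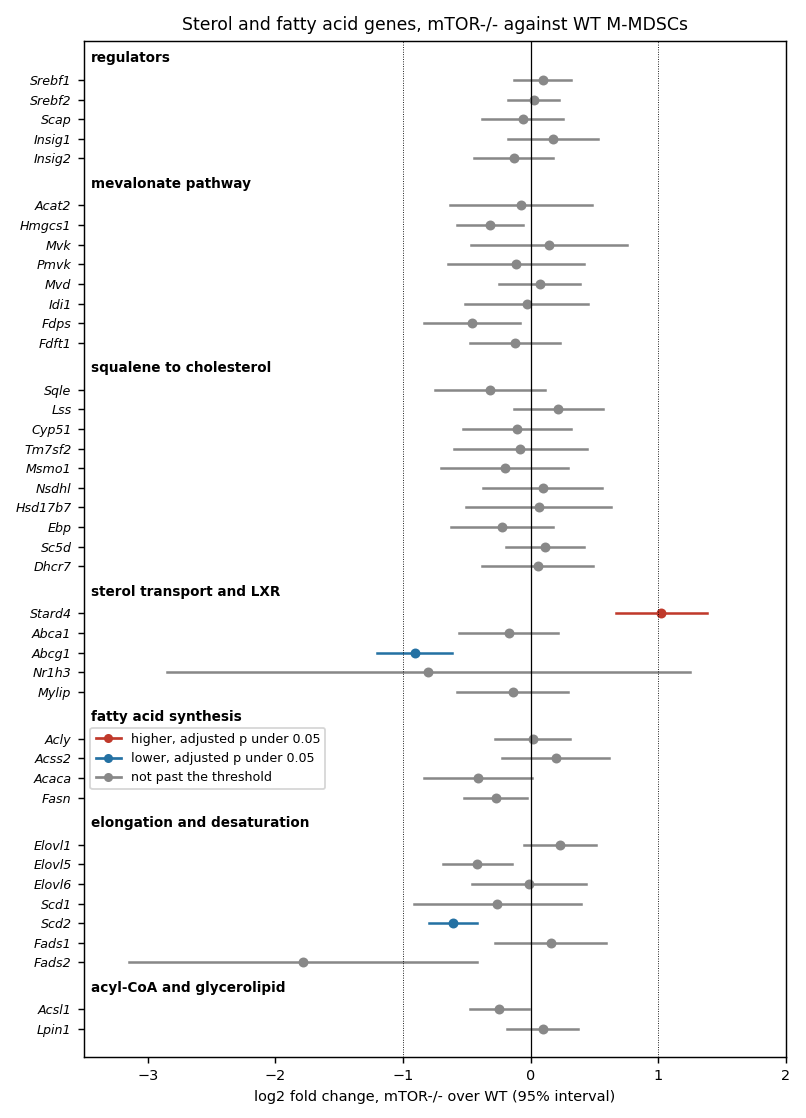
Log2 fold change of each of the 41 member genes (x axis, mTOR-/- over WT; points) with its unadjusted 95% interval (lines), grouped by role, with dotted lines at a fold of 2. Stard4 lies to the right and Abcg1 and Scd2 to the left of 0 in colour, while the regulators and the cholesterol synthesis enzymes gather around 0 in grey.

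The groups did not overlap in 2 members that were higher and 9 that were lower in mTOR-/- M-MDSCs. Over all tested genes such separation was seen in 28.4%, with 14.5% higher and 13.9% lower, and 26.8% of the members is close to that share. Intervals below are 95% intervals of the log2 fold change for each gene alone, without adjustment. For 37 of the 41 members the whole interval lay inside a fold of 2 in either direction. The exceptions were Stard4, Abcg1, Fads2 and Nr1h3. For 22 members it lay inside a fold of 1.5. Over all 12537 tested genes the interval lay inside a fold of 2 for 8953 and inside a fold of 1.5 for 5529.

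None of the 5 regulators was called, and none separated the groups. Srebf2, which encodes SREBP-2, the main activator of cholesterol synthesis genes, was at 98.9, 105 and 106 CPM in mTOR-/- replicates 1, 2 and 3 and at 99.2, 103 and 102 CPM in the WT replicates. Its log2 fold change was 0.02 (standard error 0.09, interval -0.18 to 0.22, adjusted p = 0.908, edgeR), the narrowest interval among the regulators. Srebf1, which encodes the SREBP-1 isoforms of fatty acid synthesis, was at 82.7, 80.0 and 92.9 CPM in mTOR-/- cells and 79.7, 78.3 and 81.5 CPM in WT cells. The Srebf1 value of mTOR-/- replicate 3 stood above all others, and those of replicates 1 and 2 reached into or next to the WT range (log2 fold change 0.09, interval -0.13 to 0.32, adjusted p = 0.632, edgeR). Isoforms of Srebf1 were not analysed here, and Rai1 overlaps Srebf1 on the opposite strand.
Scap, the sterol sensor that escorts SREBPs, was at 46.3, 43.9 and 55.0 CPM in mTOR-/- cells and 55.8, 43.4 and 52.4 CPM in WT cells, with the groups interleaved. Insig1, itself a known SREBP target, was at 24.7, 24.6 and 32.7 CPM in mTOR-/- cells and 23.3, 24.2 and 25.3 CPM in WT cells. Replicates 1 and 2 of the mTOR-/- group lay within the WT range and replicate 3 lay above it (log2 fold change 0.17, interval -0.18 to 0.53, adjusted p = 0.56, edgeR). Without mTOR-/- replicate 3 the log2 fold change of Insig1 was 0.02. Insig2, the paralog that is less dependent on sterols, was at 24.3, 21.8 and 25.0 CPM in mTOR-/- cells and 25.2, 27.9 and 24.9 CPM in WT cells. The values overlapped at the upper end of the mTOR-/- group (log2 fold change -0.13, interval -0.44 to 0.18, adjusted p = 0.619, edgeR).

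**Figure D2:**
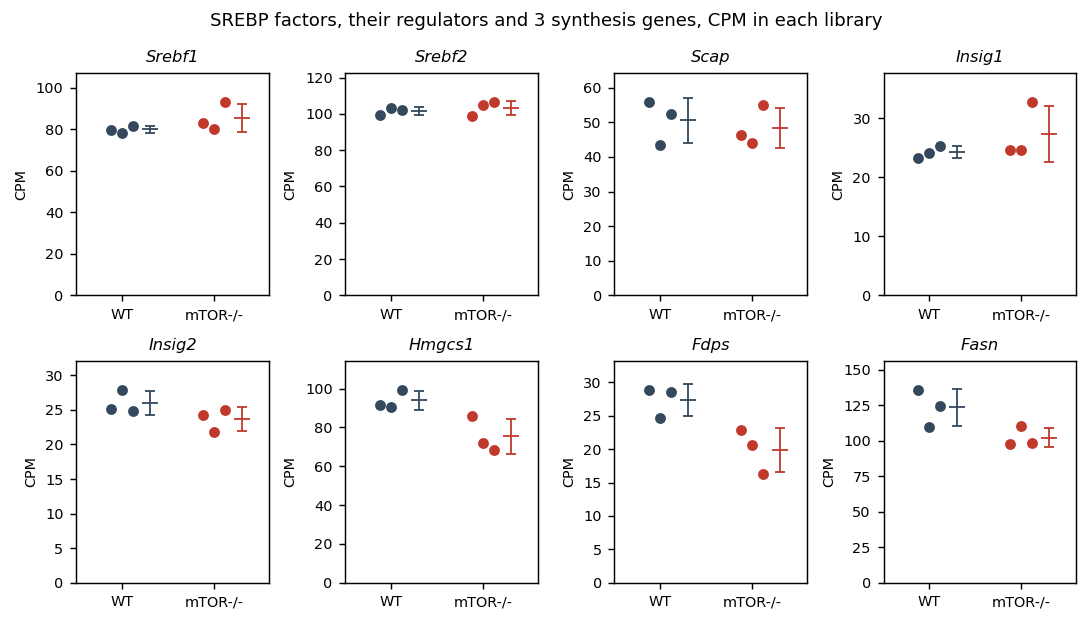
TMM-normalized CPM (y axis, from 0) of the 5 regulators and of Hmgcs1, Fdps and Fasn in each WT (dark points) and mTOR-/- library (red points), with the mean and SD of 3 libraries beside them. The regulators overlap between the groups, and the Hmgcs1 and Fdps points of the mTOR-/- group all lie below those of WT.

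The mevalonate pathway turns acetyl-CoA into squalene, and none of its 8 genes was called. Their median log2 fold change was -0.10, with 6 below 0 and 2 above. Hmgcs1, which makes HMG-CoA, was at 85.7, 71.9 and 68.5 CPM in mTOR-/- replicates 1, 2 and 3 and at 91.5, 90.7 and 99.5 CPM in the WT replicates. Every mTOR-/- library lay below every WT library, and the log2 fold change was -0.32 (standard error 0.11, interval -0.57 to -0.06, adjusted p = 0.156, edgeR). Fdps, which makes farnesyl diphosphate for sterols and protein prenylation, was at 22.8, 20.6 and 16.3 CPM in mTOR-/- cells and 28.9, 24.6 and 28.6 CPM in WT cells. Its groups did not overlap either, and the log2 fold change was -0.46 (standard error 0.17, interval -0.84 to -0.08, adjusted p = 0.16, edgeR). The annotation places Gm43738, with 10 to 57 counts per library, across Fdps on the same strand, so reads of this pair may be shared.
The 6 other genes of the pathway overlapped between the groups. Acat2, the cytosolic thiolase of the opening step, was at 5.84 ± 0.753 CPM in mTOR-/- cells and 6.15 ± 0.188 CPM in WT cells (SD, n = 3 in this and the following pairs). The kinases Mvk and Pmvk were at 6.42 ± 1.17 against 5.82 ± 1.02 CPM and at 9.08 ± 0.356 against 9.85 ± 2.70 CPM. Mvd, the decarboxylase, was at 34.0 ± 2.04 against 32.4 ± 4.13 CPM, a difference within the spread of the replicates. Idi1, the isomerase, gave 21.1 ± 5.63 against 21.5 ± 3.14 CPM, and its mTOR-/- libraries ranged from 15.8 to 27.0 CPM. Fdft1, squalene synthase, was at 25.3 ± 4.33 against 27.5 ± 0.541 CPM, and Ctsb, with 8907 to 19129 counts per library, overlaps it on the opposite strand.

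The 10 enzymes from squalene to cholesterol were likewise not called, with log2 fold changes from -0.32 to 0.22, 5 below 0 and 5 above. Ebp, the sterol isomerase, was the 1 gene among them whose groups did not overlap, at 20.0, 20.4 and 13.9 CPM in mTOR-/- replicates 1, 2 and 3 and 21.3, 21.7 and 20.4 CPM in the WT replicates. Replicate 3 stood apart in the mTOR-/- group, while replicates 1 and 2 came within 1 CPM of the lowest WT value (log2 fold change -0.22, interval -0.62 to 0.18, adjusted p = 0.509, edgeR). Sqle, squalene epoxidase and a rate-limiting step, had the lowest log2 fold change of these enzymes, -0.32 (interval -0.75 to 0.12, adjusted p = 0.38, edgeR). Its level was 30.2, 32.0 and 19.8 CPM in mTOR-/- cells and 30.2, 34.4 and 37.4 CPM in WT cells, so that replicate 3 alone lay well below the rest. Without mTOR-/- replicate 3 the log2 fold change of Sqle was -0.14.
Lss, lanosterol synthase, had the highest value of the role, a log2 fold change of 0.22 (interval -0.13 to 0.56, adjusted p = 0.455, edgeR). It was at 28.1 ± 1.66 CPM in mTOR-/- cells and 24.2 ± 3.76 CPM in WT cells. The lanosterol demethylase Cyp51 was at 17.4 ± 2.19 against 18.8 ± 3.46 CPM, and Akap9 overlaps it on the opposite strand. The sterol reductase Tm7sf2, which overlaps Vps51 (769 to 1061 counts per library) on the same strand, was at 8.84 ± 1.85 against 9.35 ± 1.17 CPM. None of these 3 genes was called. Msmo1, Nsdhl and Hsd17b7 together remove methyl groups left after the Cyp51 step. Msmo1 was at 20.3 ± 6.32 against 23.4 ± 2.62 CPM, Nsdhl at 13.4 ± 3.09 against 12.6 ± 0.628 CPM and Hsd17b7 at 8.32 ± 2.22 against 7.97 ± 0.961 CPM. Their log2 fold changes were -0.20, 0.09 and 0.06, each with an interval that includes 0. Sc5d, the lathosterol desaturase, was at 77.0 ± 12.6 against 71.1 ± 6.37 CPM, and Dhcr7, the final reductase, was at 14.0 ± 2.65 against 13.5 ± 1.12 CPM.
Over the 18 enzymes of both stages, the summed level was 479.7, 424 and 386 CPM in mTOR-/- replicates 1, 2 and 3 and 465, 433 and 484 CPM in the WT replicates. The WT sums fell inside or just above the span of the mTOR-/- sums. For all 18 enzymes the interval lay inside a fold of 2, and for 9 of them inside a fold of 1.5.

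Sterol transport and efflux held 2 of the 3 called members, in opposite directions. Stard4 (ENSMUSG00000024378, chromosome 18, 33199355 to 33213862), a soluble carrier that moves cholesterol between membranes, was at 66.9, 60.7 and 55.4 CPM in mTOR-/- replicates 1, 2 and 3 and at 33.9, 23.7 and 32.4 CPM in the WT replicates. The lowest mTOR-/- library stood above the highest WT library, and the mean was 61.0 ± 5.77 against 30.0 ± 5.51 CPM (SD, n = 3). The log2 fold change was 1.02 (standard error 0.16, interval 0.67 to 1.38, adjusted p = 0.00916, edgeR), a fold of 2.03. Stard4 stayed called when any 1 library was left out, with log2 fold changes of 0.88 to 1.11, but it fell short of the 2-fold threshold of a DEG without mTOR-/- replicate 1 and without WT replicate 2. Stard4 is itself known as a SREBP target, and no other gene is annotated across it. Of the other called members, Abcg1 is overlapped by the rRNA gene Gm25447 and Scd2 by the microRNA gene Mir5114. Both lie on the same strand as the member and are absent from the count table.
Abcg1 (ENSMUSG00000024030, chromosome 17, 31057698 to 31115777), which exports cholesterol to HDL and is induced by LXR, was at 100.002, 87.0 and 69.2 CPM in mTOR-/- cells. In the WT libraries it was at 159.7, 161 and 160.5 CPM, a spread of 0.557 CPM (SD, n = 3). The 3 mTOR-/- libraries differed more among themselves (SD 15.5 CPM) but all lay far below WT. The log2 fold change was -0.91 (standard error 0.13, interval -1.20 to -0.61, adjusted p = 0.00642, edgeR), a level 1.88-fold higher in WT. It stayed called in each of the 6 fits that left out 1 library, with log2 fold changes of -1.04 to -0.78.
Abca1, the other LXR-induced exporter, which loads cholesterol onto apolipoprotein A-I, was not called, at 32.0, 23.3 and 30.8 CPM in mTOR-/- cells and 26.7, 35.5 and 34.9 CPM in WT cells. Its values interleaved, with a log2 fold change of -0.17 (interval -0.56 to 0.22, adjusted p = 0.606, edgeR). Whether Abca1 and Abcg1 changed by different amounts was not tested. Mylip, an LXR-induced ubiquitin ligase, was at 49.2, 29.3 and 49.6 CPM in mTOR-/- cells and 50.7, 44.2 and 46.5 CPM in WT cells, where mTOR-/- replicate 2 alone was low. Nr1h3, which encodes LXR alpha, had 11, 14 and 0 counts in mTOR-/- cells and 16, 10 and 23 in WT cells. At these counts its interval, -2.85 to 1.25, is too wide to tell a fall from a rise.

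**Figure D3:**
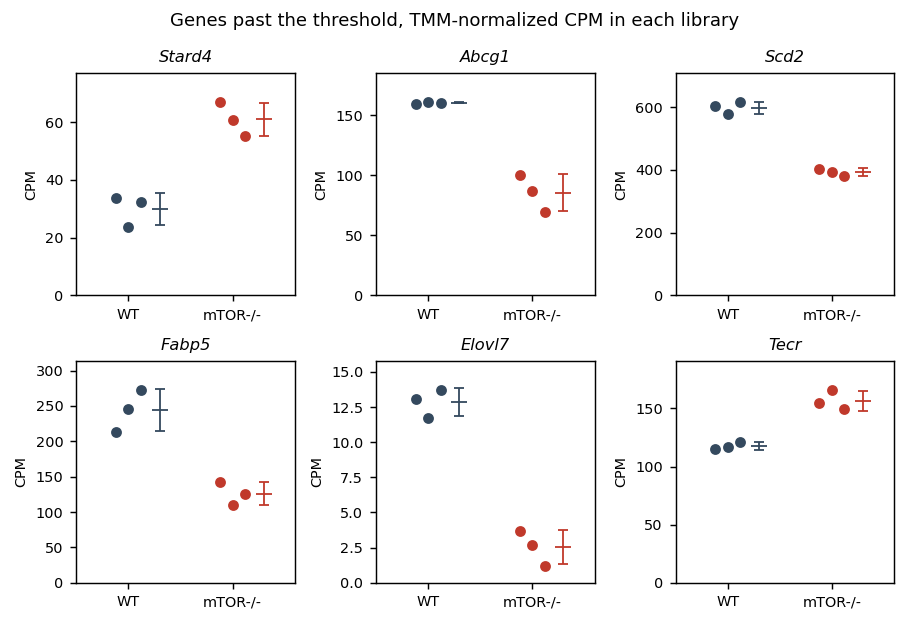
TMM-normalized CPM (y axis, from 0) of the called members Stard4, Abcg1 and Scd2 and of the called genes Fabp5, Elovl7 and Tecr in each WT (dark points) and mTOR-/- library (red points), with the mean and SD of 3 libraries beside them. In each panel the 3 mTOR-/- points and the 3 WT points do not overlap, with Stard4 and Tecr higher and the others lower in mTOR-/-.

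Of the 4 genes that supply and build fatty acids none was called. Acaca, acetyl-CoA carboxylase, the committed step, was at 21.5, 26.6 and 16.2 CPM in mTOR-/- replicates 1, 2 and 3 and 27.4, 27.2 and 31.1 CPM in the WT replicates. The groups did not overlap, although mTOR-/- replicate 2 came within 1 CPM of the lowest WT library (log2 fold change -0.41, standard error 0.19, interval -0.84 to 0.01, adjusted p = 0.247, edgeR). Fasn, the synthase, was at 98.1, 110.2 and 98.5 CPM in mTOR-/- cells and 136, 110.0 and 125 CPM in WT cells. Here mTOR-/- replicate 2 reached the level of WT replicate 2, and the log2 fold change was -0.27 (interval -0.52 to -0.03, adjusted p = 0.193, edgeR). Acly, which cleaves citrate into acetyl-CoA, was at 203 ± 37.3 against 201 ± 4.74 CPM (SD, n = 3). Its mTOR-/- libraries spread from 162 to 235 CPM around the narrow WT range. Acss2, which makes acetyl-CoA from acetate, was at 12.6 ± 1.70 against 11.02 ± 0.762 CPM, within the spread of the replicates.

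Elongation and desaturation held the third called member, Scd2, and 4 of the 11 members whose groups did not overlap. Scd2 (ENSMUSG00000025203, chromosome 19, 44293676 to 44306864), a stearoyl-CoA desaturase that makes monounsaturated fatty acids, was at 404, 395 and 379 CPM in mTOR-/- replicates 1, 2 and 3. In the WT replicates it was at 603, 578 and 616 CPM, above every mTOR-/- library. The log2 fold change was -0.61 (standard error 0.08, interval -0.80 to -0.42, adjusted p = 0.00523, edgeR), a level 1.52-fold higher in WT and below the 2-fold threshold of a DEG. It was called in all 6 fits that left out 1 library, with log2 fold changes of -0.64 to -0.59. Scd1, the neighbouring paralog, was at 4.89, 6.56 and 3.90 CPM in mTOR-/- cells and 6.47, 5.33 and 6.62 CPM in WT cells. Its groups overlapped (log2 fold change -0.26, interval -0.92 to 0.39, adjusted p = 0.645, edgeR). The counting of reads shared by these paralogs is not described, so their division is uncertain.
Elovl5, which elongates polyunsaturated fatty acids, was at 132, 123 and 96.6 CPM in mTOR-/- cells and 151, 159.8 and 158 CPM in WT cells. The groups were apart, and the log2 fold change was -0.42 (standard error 0.12, interval -0.69 to -0.14, adjusted p = 0.0923, edgeR), the closest to the threshold of the members not called. With DESeq2's Wald test Elovl5 was called (adjusted p = 0.0353). Fads2, the desaturase that begins polyunsaturated fatty acid synthesis, was at 4.16, 1.00 and 0.688 CPM in mTOR-/- cells and 4.69, 7.10 and 8.26 CPM in WT cells. Its highest mTOR-/- value, replicate 1, came close to its lowest WT value, and replicates 2 and 3 rested on 13 and 9 counts. Fads2 had the lowest log2 fold change of all members, -1.78, with a standard error of 0.61 (interval -3.15 to -0.42, adjusted p = 0.138, edgeR). It was called by DESeq2 (adjusted p = 0.0319) and by edgeR without mTOR-/- replicate 1 (log2 fold change -2.97, adjusted p = 0.0217).
Fads1, the neighbouring desaturase, did not separate the groups, at 22.3, 17.1 and 27.0 CPM in mTOR-/- cells and 21.9, 17.3 and 20.4 CPM in WT cells (log2 fold change 0.16, adjusted p = 0.684, edgeR). Elovl1, an elongase of very long saturated chains, was the 1 member beside Stard4 whose mTOR-/- values all lay above WT, at 68.9, 62.9 and 62.4 CPM against 59.6, 59.1 and 47.0 CPM. It was not called (log2 fold change 0.23, interval -0.05 to 0.51, adjusted p = 0.328, edgeR), and the cell cycle gene Cdc20, with 350 to 587 counts per library, overlaps it on the opposite strand. Elovl6, which extends palmitate to stearate, was at 18.8 ± 4.41 against 18.9 ± 2.39 CPM (SD, n = 3), with no difference beyond the spread of the replicates (log2 fold change -0.01, interval -0.46 to 0.43).

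Acsl1, which activates long-chain fatty acids to acyl-CoA, was at 69.6, 61.8 and 72.1 CPM in mTOR-/- replicates 1, 2 and 3 and 78.7, 81.2 and 81.6 CPM in the WT replicates. All mTOR-/- values lay below the WT values, but the gene was not called (log2 fold change -0.25, standard error 0.10, interval -0.48 to -0.02, adjusted p = 0.209, edgeR). Lpin1, whose product links mTOR complex 1 to SREBP and dephosphorylates phosphatidate for glycerolipid synthesis, was at 53.3, 44.5 and 46.7 CPM in mTOR-/- cells and 46.0, 48.0 and 41.3 CPM in WT cells. The groups overlapped, and its log2 fold change was 0.09 (interval -0.18 to 0.37, adjusted p = 0.707, edgeR).

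Levels can be set side by side between genes only per length, for which the deposited FPKM values were used. Scd2 had the highest mean level of the members, 72.5 FPKM in mTOR-/- cells and 109 FPKM in WT cells. Elovl5 followed at 30.3 and 40.003 FPKM, and Abcg1 at 20.4 and 37.9 FPKM. In WT the order after Scd2 was Elovl5, Abcg1 and Hmgcs1 (28.8 FPKM), whereas in mTOR-/- Abcg1 came after Acly (24.9 FPKM), Hmgcs1 (23.4 FPKM), Sc5d (22.8 FPKM) and Srebf2 (20.8 FPKM). Srebf2 was above Srebf1 in both groups, at 20.2 against 8.61 FPKM in WT. Insig1 was above Insig2, at 6.97 against 3.41 FPKM in WT. Mean CPM in WT were 24.3 for Insig1 and 26.0 for Insig2, and 102 for Srebf2 and 79.9 for Srebf1. The order of Insig1 and Insig2 therefore rests on the lengths behind the FPKM values, which are not stated. So does part of the gap between Srebf2 and Srebf1. Scd1, at 1.26 FPKM in WT, lay far below Scd2, and Nr1h3 was lowest at 0.221 FPKM. Stard4 rose from 4.39 FPKM in WT to 9.03 FPKM in mTOR-/-.

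The 41 members together took 0.193 to 0.212% of all counts in mTOR-/- cells and 0.229 to 0.238% in WT cells. Scd2 alone made up 19.0 to 19.9% of the members' counts in mTOR-/- cells and 25.1 to 25.6% in WT cells. Without the 3 called genes the members summed to 1555, 1469.8 and 1400.0 CPM in mTOR-/- replicates 1, 2 and 3. The sums in the WT replicates were 1586, 1543 and 1600.0 CPM. Only mTOR-/- replicate 1 reached into the WT range, and replicates 2 and 3 stayed below every WT library. The 3 genes were left out because they differed in these data, so a narrower gap was set in advance.
Members varied more among mTOR-/- libraries than among WT libraries. The coefficient of variation was larger in the mTOR-/- group for 33 of 41 members, with a median of 16.7% against 8.97%. The median SD of log2 levels was 0.248 in mTOR-/- and 0.133 in WT for the members, and 0.222 and 0.149 over all tested genes, where it was wider in mTOR-/- as well. Between mTOR-/- replicates 1 and 2 alone it was 0.111 for the members and 0.141 over all tested genes. A median SD of 2 libraries tends to be smaller than one of 3, and no other pair was computed. The share of replicate 3 in the spread was therefore not tested. Replicate 3 was the lowest of the mTOR-/- group for 24 members and for 13 of the 18 cholesterol synthesis enzymes, and the highest for 13. In the WT group replicate 2 was the lowest for 22 members and for 12 of the enzymes. These counts, and that of the coefficient of variation, were not made over all tested genes. Whether they are particular to the members was therefore not tested. Without mTOR-/- replicate 3 the same 3 members were called.

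**Figure D4:**
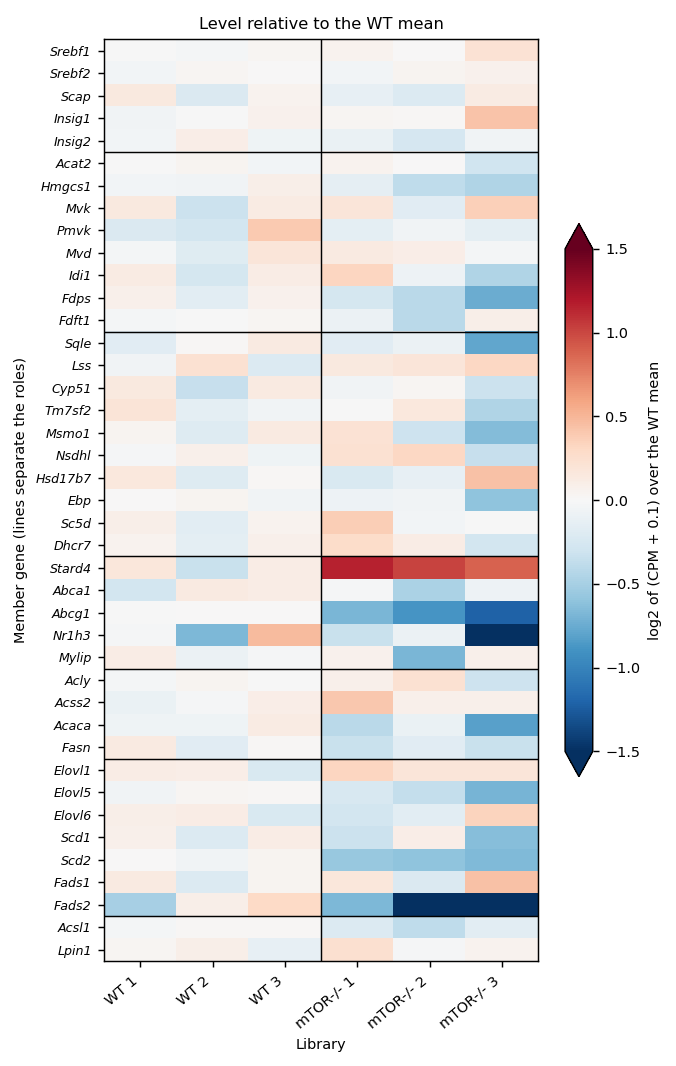
Level of each of the 41 members (rows, in the order of their roles) in each library (columns), as the log2 of CPM plus 0.1 over the WT mean, where blue is lower and red is higher and the scale ends at 1.5 in either direction. Stard4 is red and Abcg1 and Scd2 are blue in all 3 mTOR-/- libraries, while blue among the cholesterol synthesis enzymes gathers in replicate 3.

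A second list held 65 further genes of sterol and fatty acid metabolism, of which 58 were tested. Of these, 1 was called higher and 2 lower, 5.17% against 4.04% of all tested genes. Their median log2 fold change was -0.12, with 40 below 0 and 18 above. The share below 0 was 69.0%, against 49.4% of all tested genes. The groups did not overlap in 32.8% of this list, against 28.4% of all tested genes. Fabp5 (ENSMUSG00000027533, chromosome 3, 10012548 to 10016607), a fatty acid binding protein, was at 143, 111 and 125 CPM in mTOR-/- replicates 1, 2 and 3 and 213, 246 and 273 CPM in the WT replicates. All mTOR-/- libraries lay below all WT libraries, and the log2 fold change came to -0.95 (standard error 0.13, interval -1.24 to -0.67, adjusted p = 0.00411, edgeR). Elovl7 (ENSMUSG00000021696, chromosome 13, 108214404 to 108287105), a fatty acid elongase, was at 3.67, 2.70 and 1.22 CPM in mTOR-/- cells and 13.1, 11.7 and 13.7 CPM in WT cells. It was the 1 DEG of this list, its log2 fold change was -2.35 (standard error 0.35, interval -3.14 to -1.55, adjusted p = 0.00783, edgeR), and the mTOR-/- values spread over a wider relative range than those of WT. Tecr (ENSMUSG00000031708, chromosome 8, 83571700 to 83594491), the reductase of the last step of elongation, was at 154, 166 and 149.6 CPM in mTOR-/- cells and 115, 117 and 121 CPM in WT cells. The groups were apart, and its log2 fold change was 0.41 (standard error 0.09, interval 0.21 to 0.61, adjusted p = 0.0351, edgeR), but Tecr was called in only 1 of the 6 fits that left out 1 library, the one without mTOR-/- replicate 3. Fabp5 and Elovl7 were called in all 6. The pseudogenes Gm32376 and Gm30747 overlap Elovl7 on the opposite strand. Tecr is overlapped by D830024N08Rik on the opposite strand and by Gm45823 on the same strand. None of these overlapping genes is in the count table.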

How the data were processed

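The 6 libraries were grouped by their titles into mTOR-/- and WT, with the replicate number of each title. The authors deposited raw read counts, in whole numbers, for 34745 genes, without normalization. The study's methods name Bowtie2 on mm10 and HTSeq, while the labels' processing notes list HISAT2 2.0.4 and StringTie 1.3.0 with GRCm38.p4 and mm9. Of the gene identifiers shared with GENCODE M21 on GRCm38, 80.8% had the same start and end, and positions are given as deposited. Annotation release and strand setting are not given in the sources used here. The FPKM values that the authors deposited, with lengths not stated, served only to set levels side by side between genes. Files with the authors' own fold changes and p-values were not used, nor were 24 columns that repeat the counts and FPKM values.

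Genes were filtered with filterByExpr (minimum count 10, minimum total 15) and compared with the quasi-likelihood F test of edgeR 4.0.16 in R 4.3.3 (limma 3.58.1, TMM normalization, Benjamini-Hochberg adjustment over 12537 genes), without a block. The method was tested on simulated data, drawn with the same variability for all genes and both groups. The data differ from that setting, as the mTOR-/- libraries spread more widely than the WT libraries. The biological coefficient of variation was 19%. Genes were named by role: called members, members whose groups did not overlap and the 5 regulators are given in every library, other members by mean or in every library with the extremes of a role, and other pathway genes where called. Where a marker symbol had 2 entries, the one with more counts was taken. The members and lists were chosen with earlier results of these data known. Alternatives were DESeq2 1.42.0, RLE normalization, no filter, at least 10 counts in every sample, each library left out, and the replicate number as a block.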

Additional observations from a re-analysis of the deposited data

How the results depend on the processing

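Stard4, Abcg1 and Scd2 were called with the same direction under all 11 alternatives, and no other member was called by edgeR with all 6 libraries. DESeq2's Wald test added Elovl5 and Fads2, giving 4 members called lower in place of 2 and 1 DEG lower in place of 0, and called 8 other pathway genes lower in place of 2. That number was 5 with no filter on low counts and 4 with at least 10 counts in every sample. With 1 library left out at a time, members called lower numbered 2 to 3, DEGs higher 0 to 1, DEGs lower 0 to 2, other pathway genes called higher 0 to 1 and called lower 2 to 4. The cause of these changes was not tested. Fads2 was the member added without mTOR-/- replicate 1, where Fads2 and Abcg1 were the 2 DEGs. Nr1h3 and Fads2 were not tested with at least 10 counts in every sample.

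Same-numbered libraries did not deviate together (correlations of -0.096, -0.069 and -0.098 across genes), which gives no sign of pairing by replicate number. Deviations from a mean of 3 libraries constrain each other, so these values cannot exclude that same-numbered libraries were prepared together. With the replicate block 279 genes were called in place of 507, among them the same 3 members (1 higher and 2 lower, 1 DEG), and of the other pathway genes 0 higher and 2 lower. Acly moved to -0.00023 with the block. Over all genes, DESeq2 called 1144.

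For 26 members the direction was the same under every alternative. The 15 that changed sign were all near 0, none was called in any fit, and their log2 fold changes with 1 library left out ranged from -0.0038 to 0.052 for Srebf2, -0.17 to 0.0065 for Scap, -0.14 to 0.021 for Acat2, -0.24 to 0.13 for Pmvk, -0.016 to 0.17 for Mvd, -0.25 to 0.13 for Idi1, -0.23 to 0.072 for Tm7sf2, -0.039 to 0.27 for Nsdhl, -0.18 to 0.19 for Hsd17b7, -0.028 to 0.18 for Sc5d, -0.072 to 0.19 for Dhcr7, -0.27 to 0.058 for Mylip, -0.11 to 0.15 for Acly, -0.23 to 0.10 for Elovl6 and -0.016 to 0.30 for Fads1.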
